A study of Homo sapiens with 12 samples.

Results

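This comparison set the effect of a γ-secretase inhibitor in the mantle cell lymphoma lines Rec-1 and SP-49 against its effect in the line Mino. All 3 are established human B-cell lymphoma lines. Each line had a mock group, kept in 0.1% DMSO, and an inhibitor group, kept in 1 µM compound E, and RNA was taken after 24 h. Every group had 2 Affymetrix arrays, 12 in all, and no other group was used. Cells grew in RPMI with 15% serum for Mino and 10% serum for Rec-1 and SP-49, so serum and line cannot be told apart. It is not given in the sources used here whether the 2 arrays of a group came from separate cultures, so p-values measure the spread between these arrays, which may be technical. The quantity compared is the inhibitor effect (inhibitor mean minus mock mean, log2 scale) averaged over Rec-1 and SP-49, minus the inhibitor effect in Mino. It is called the difference from Mino below, and a negative value means a more negative effect in Rec-1 and SP-49 than in Mino.

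The genes described were chosen by their measured mock level, a mock mean of 4 or more in all 3 lines, on a deposited scale that ran from 0.58 to 12.78, so that each line had room to fall. Each gene was represented by its brightest probe set. Of 19775 genes, 6218 (31.4%) met this rule, and 11497 were below 4 in all 3 mock groups. The rule used mock levels and not the difference from Mino, but the mock arrays enter both. Because it leaves room to fall and drops genes that rise from below 4, the balance of lower and higher genes is partly set by it. Just inside the limit, DLGAP4, TRPM7 and ZSCAN29 had differences from Mino of -0.37, -0.52 and 0.10. Just outside it, THADA, OGDH and NOTCH4 had -0.92, 0.14 and -0.13.

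Notch receptors are cut by γ-secretase after ligand binding, and the freed intracellular part enters the nucleus and switches on target genes with the DNA-binding protein RBPJ. MYC is a direct Notch target in several lymphoid cancers. The MYC protein pairs with MAX on E-box sequences and is known for raising genes of ribosome production, nucleotide synthesis and metabolism. An inhibitor of γ-secretase stops this cut for every Notch receptor and for other substrates of the enzyme.

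B-cell and lymphoma markers were present in all 3 lines. MS4A1, CD79A, CD79B, PAX5 and CCND1 had group means of 7.15 or more, whereas CD5 was 2.40 in Rec-1 and 2.73 in SP-49 mock cells and 4.37 in Mino. Of the markers of other cell types, 0 were at 4 or more in all 3 mock groups. Group means reached 4 for 3 of 13 T-cell markers (highest LCK, 6.18), 1 of 9 NK-cell markers (PRF1, 7.18) and 1 of 9 epithelial markers (EPCAM, 4.14), and for 0 myeloid, stromal or red-cell markers. The GAPDH 3′ minus 5′ probe difference, a sign of RNA integrity, was 0.59 and 0.49 on the Rec-1 inhibitor arrays against 0.41 and 0.37 on the Rec-1 mock arrays. It spanned 0.25 to 0.44 on the arrays of the other 2 lines, and its part in the results was not tested. The same difference for ACTB, 2.29 and 1.92 on the Rec-1 inhibitor arrays, lay within the 1.73 to 2.36 of the other arrays. Arrays of 1 line correlated at 0.979 to 0.995 over all probe sets.

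Averaged over Rec-1 and SP-49, the inhibitor effect was more negative than in Mino for a small set of genes. MYC, the glucose-trapping enzyme HK2, the amino acid enzyme BCAT1, the Notch feedback gene NRARP and the ribosome biogenesis factors PNO1 and NOP16 stood among them. The difference from Mino passed for 16 of 6218 genes (0.257%), against 30 of all 19775 genes (0.152%), by limma with Benjamini-Hochberg adjustment over all genes at 0.05. Of the 16, 12 (0.193% of the 6218) were lower and 4 (0.0643%) were higher. Over all 6218 genes the median difference was -0.09, with 5th and 95th percentiles of -0.65 and 0.37, and 64.2% lay below 0 (49.6% after a repeated quantile normalization). A value of -1 or below was reached by 43 genes and a value of 1 or above by 4.

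In Mino, the 12 lower genes had inhibitor effects between -0.13 and 0.19. In Rec-1 the same 12 had effects between -2.27 and -0.94, and in SP-49 between -1.55 and -0.52. For 12 of 12 genes the inhibitor arrays of Rec-1 and of SP-49 were all below the mock arrays of the same line. The 12 were picked for negative differences on these same arrays, so this separation is no separate support. The share of the 6218 genes with it was not counted. The effect within Rec-1 passed for 12 of these 12, against 9.18% of the 6218 genes called lower there. Within SP-49 it passed for 4 (MYC, HK2, BCAT1 and CCDC86), against 0.177%. Set against Mino 1 line at a time, the Rec-1 effect passed for 12 of these 12, against 2.14% of the 6218 called lower. The SP-49 effect set against Mino passed for 0 of them and 0 of the 6218. These are tests that use the same arrays as the difference from Mino. In bulk RNA, a change in every cell and a change in a share of the cells cannot be told apart.

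**Figure D1:**
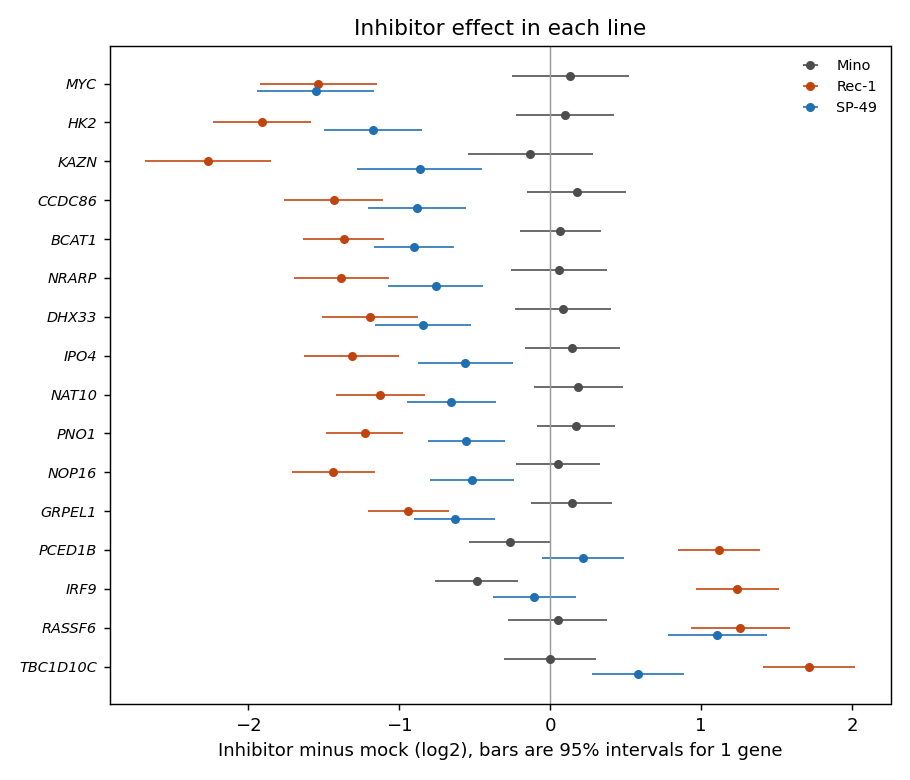
Inhibitor minus mock (log2, x axis) in Mino, Rec-1 and SP-49 for the 16 genes that passed, with limma's 95% intervals for a single gene, 2 arrays a group. The 12 upper genes sit near 0 in Mino, between -0.13 and 0.19, and furthest left in Rec-1 for 11 of 12, with MYC as the exception; IRF9 stands apart because its Mino effect is -0.49 and its SP-49 effect -0.11.

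MYC had the most negative difference among the 16 called genes. Its level in Mino was 9.92 and 9.72 on the mock arrays and 9.86 and 10.04 on the inhibitor arrays. In Rec-1 it was 8.32 and 8.38 without and 7.12 and 6.52 with the inhibitor. In SP-49 it was 7.33 and 7.32 without and 5.79 and 5.75 with it. Mino arrays overlapped between treatments, and MYC stood highest in Mino under both. The effects were -1.53 in Rec-1 and -1.55 in SP-49, falls of 2.90-fold and 2.93-fold, and the difference from Mino was -1.68 (SE 0.216, 95% interval -2.15 to -1.20, limma adjusted p = 0.0140). The Rec-1 and SP-49 effects differed by 0.02 (95% interval -0.53 to 0.57, limma adjusted p = 0.991).

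NRARP, a short ankyrin-repeat protein that Notch induces and that damps Notch signalling, started from another order of levels. Its mock values were 4.13 and 4.36 in Mino, 5.43 and 5.44 in Rec-1, and 5.81 and 5.81 in SP-49. With the inhibitor they were 4.13 and 4.47 in Mino, 4.10 and 4.0 in Rec-1, and 5.00 and 5.11 in SP-49. The Rec-1 inhibitor arrays thus ended at or below the lowest Mino array, while those of SP-49 stayed above every Mino array. The difference from Mino was -1.13 (SE 0.176, limma adjusted p = 0.0395).

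Of 5 genes at this level from a list of Notch targets, MYC and NRARP passed and HES6, DTX1 and CCND1 did not (0.17, 0.33 and 0.54). DTX1, an E3 ligase of the Notch pathway, had effects of opposite sign in the lines that were averaged. Its Rec-1 level was 8.93 and 8.82 without and 8.36 and 8.39 with the inhibitor, and its SP-49 level was 7.07 and 7.14 without and 7.55 and 7.75 with it. The Rec-1 effect minus the SP-49 effect was -1.05 (limma adjusted p = 0.0275), so the average of the lines hides effects of opposite sign. Within lines, the Rec-1 fall passed (limma adjusted p = 0.0371) and the SP-49 rise did not (limma adjusted p = 0.130). DTX1 was also lower with the inhibitor in Mino, by 0.31. The Rec-1 effect minus the Mino effect was thus only -0.20 (limma adjusted p = 0.677). The DTX1 difference from Mino was 0.33 (limma adjusted p = 0.459). NOTCH1 itself had a difference of -0.10 (95% interval -0.41 to 0.21, limma adjusted p = 0.854). FYN, a Src-family kinase from a list of Notch-linked B-cell genes, fell within Rec-1 by 0.93 (limma adjusted p = 0.00233) and within SP-49 by 0.80 (limma adjusted p = 0.0450), and had -0.07 in Mino. Its difference of -0.80 did not pass (limma adjusted p = 0.0889), but did when genes dim in every group were left out before the fit (limma adjusted p = 0.0338). Of 16 receptors, enzymes and nuclear partners of the Notch pathway, 0 passed and the median was -0.04.

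HK2 and BCAT1 are the metabolic enzymes of the set. HK2, hexokinase 2, traps glucose in the cell by phosphorylating it. It read 6.13 and 6.09 in mock and 6.14 and 6.27 in inhibitor-treated Mino cells. In Rec-1 it went from 6.03 and 5.72 to 4.01 and 3.91, and in SP-49 from 4.89 and 4.90 to 3.88 and 3.57. Mock levels of HK2 in Rec-1 lay just below those in Mino, and after the inhibitor the groups were far apart. Its difference from Mino was -1.64 (SE 0.181, limma adjusted p = 0.00669), the smallest adjusted p of the 6218 genes, and the falls were 3.76-fold in Rec-1 and 2.26-fold in SP-49. The HK2 inhibitor arrays ended near 4, where background weighs on the value. Its 2 other probe sets were dim and had differences of -0.30 and -0.49. The first of these did not fall in Rec-1, with effects of 0.17 there, -0.23 in SP-49 and 0.27 in Mino. The second had -0.77, -0.71 and -0.25 in the same order. With its probe sets averaged HK2 had -0.81 (limma adjusted p = 0.0346).

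BCAT1, the cytosolic enzyme that starts the breakdown of leucine, isoleucine and valine, was bright in all lines. It was 9.39 and 9.23 in mock and 9.37 and 9.38 in inhibitor-treated Mino cells. It went from 8.73 and 8.66 to 7.40 and 7.24 in Rec-1, and from 7.05 and 7.07 to 6.20 and 6.12 in SP-49. No array of either line overlapped between treatments. BCAT1 differed from Mino by -1.20 (SE 0.149, limma adjusted p = 0.0116). Its 3 other probe sets, not used to represent the gene, had differences of -1.28, -1.29 and -1.14.

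**Figure D2:**
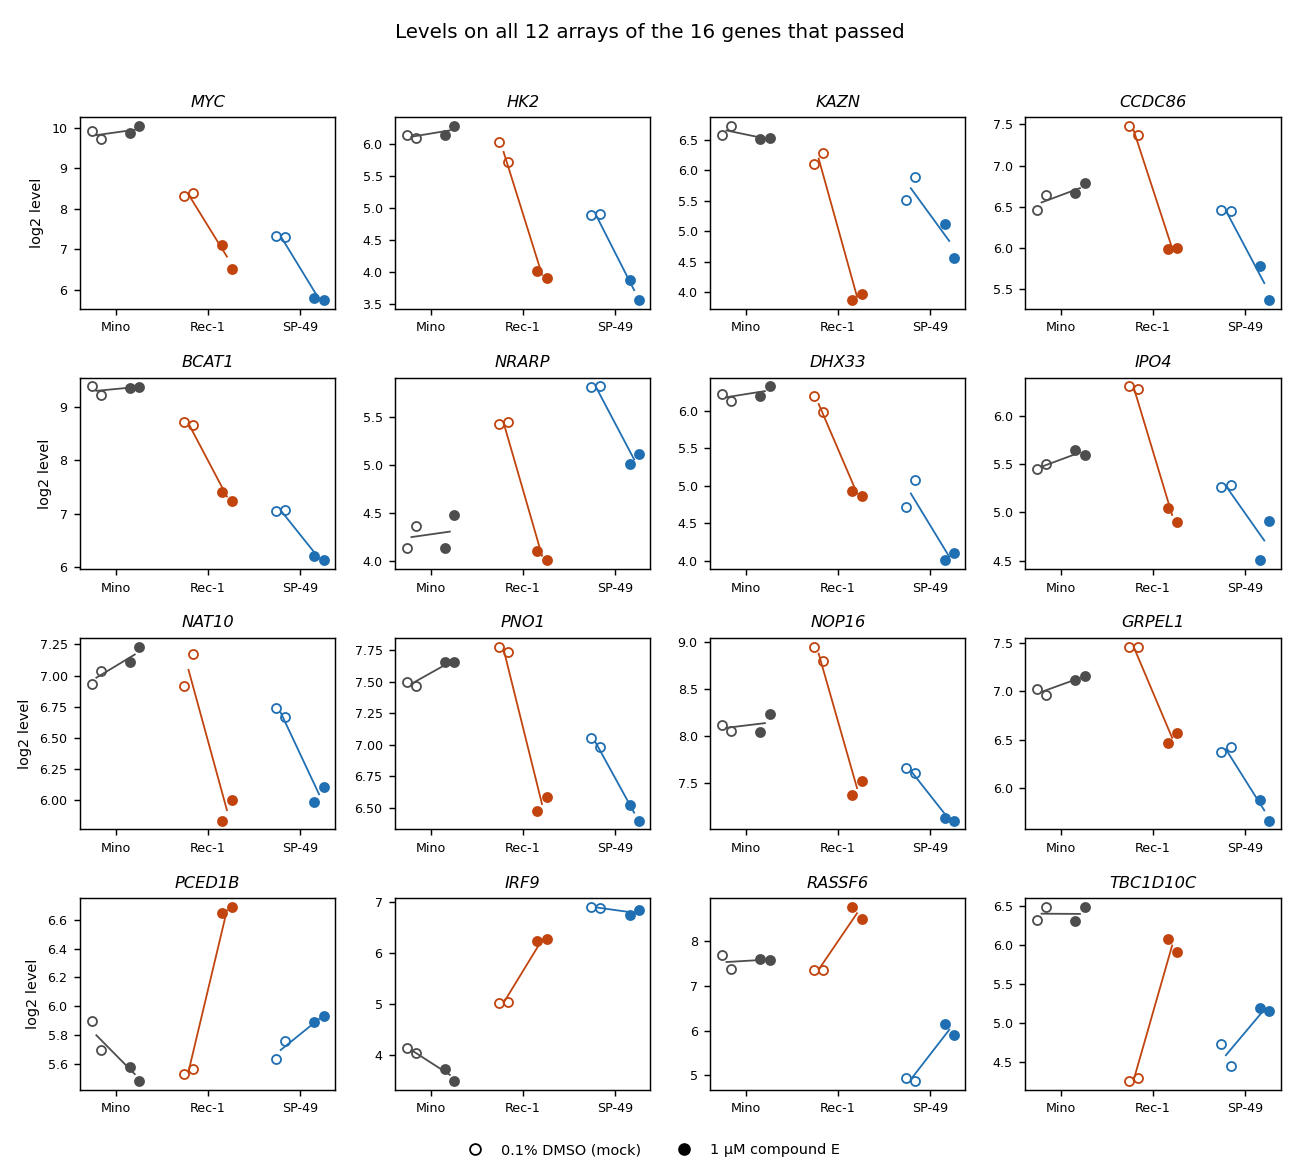
Deposited log2 levels (y axis, a separate scale for each gene) on all 12 arrays for the 16 genes that passed; open points are mock, filled points inhibitor, and lines join group means. For the 12 lower genes the filled points lie below the open points in Rec-1 and SP-49, and in 11 of 12 (all but NRARP) every one of these filled points lies below every Mino point.

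PNO1 and NOP16 are the called genes of the ribosome biogenesis list described below. NAT10, DHX33 and CCDC86 are not in that list and were set beside them after their values were seen. NAT10 acetylates ribosomal RNA, PNO1 helps to mature the small ribosomal subunit, NOP16 is a nucleolar factor of the large subunit, DHX33 is a nucleolar RNA helicase and CCDC86 is a nucleolar coiled-coil protein. PNO1 stood at 7.50 and 7.47 in mock and 7.66 and 7.66 in inhibitor-treated Mino cells. It went from 7.78 and 7.74 to 6.47 and 6.59 in Rec-1, and from 7.05 and 6.98 to 6.53 and 6.40 in SP-49. PNO1 arrays in Mino were slightly higher with the inhibitor, and the difference from Mino was -1.06 (SE 0.143, limma adjusted p = 0.0176). NOP16 in Mino was 8.12 and 8.06 without and 8.04 and 8.23 with the inhibitor. It went from 8.95 and 8.81 to 7.37 and 7.52 in Rec-1 and from 7.66 and 7.60 to 7.12 and 7.10 in SP-49. Its Rec-1 effect was -1.44 and its SP-49 effect -0.52, and the difference from Mino was -1.03 (limma adjusted p = 0.0329). A second bright NOP16 probe set had -1.37, and its 2 dim ones 0.06 and -0.25. With its probe sets averaged, NOP16 had -0.65 and did not pass (limma adjusted p = 0.0726).

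CCDC86 had the most negative difference of these 5 genes. It was 6.46 and 6.64 in mock and 6.67 and 6.78 in inhibitor-treated Mino cells, went from 7.48 and 7.37 to 5.98 and 6.0 in Rec-1, and from 6.46 and 6.44 to 5.77 and 5.36 in SP-49. Mock SP-49 and mock Mino cells thus had nearly equal CCDC86 levels and separated with the inhibitor. CCDC86 differed from Mino by -1.33 (SE 0.182, limma adjusted p = 0.0192). NAT10 began at 6.93 and 7.04 in Mino, 6.92 and 7.17 in Rec-1, and 6.74 and 6.67 in SP-49, the most even start of the 12 lower genes. With the inhibitor it was 7.11 and 7.23, 5.84 and 6.01, and 5.99 and 6.11 in the same order. The NAT10 difference from Mino was -1.08 (limma adjusted p = 0.0354). DHX33 had effects of 0.08 in Mino, -1.19 in Rec-1 and -0.84 in SP-49, and a difference of -1.10 (limma adjusted p = 0.0419).

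IPO4 and GRPEL1 serve protein import, IPO4 into the nucleus and GRPEL1 as the exchange factor of the mitochondrial HSP70 that pulls proteins into the matrix. IPO4 had effects of 0.15 in Mino, -1.31 in Rec-1 and -0.56 in SP-49. Its SP-49 inhibitor arrays were 4.50 and 4.92, the widest such pair among the import genes. IPO4 differed from Mino by -1.09 (limma adjusted p = 0.0419). GRPEL1 had 0.14, -0.94 and -0.63 in the same lines and a difference of -0.93 (limma adjusted p = 0.0419), the smallest of the 12.

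KAZN, which encodes a protein of cell junctions and the cytoskeleton, differed between the lines that were averaged. It was 6.58 and 6.73 in mock and 6.52 and 6.53 in inhibitor-treated Mino cells. In Rec-1 it went from 6.11 and 6.28 to 3.87 and 3.98, and in SP-49 from 5.52 and 5.90 to 5.13 and 4.56. The Rec-1 arrays ended just under the limit of 4, while the SP-49 arrays moved less and scattered more. The difference from Mino was -1.43 (SE 0.231, limma adjusted p = 0.0419), and the Rec-1 effect minus the SP-49 effect was -1.40 (limma adjusted p = 0.0478). Other KAZN probe sets were dim and had -1.10, -0.04 and 0.38, and with its probe sets averaged KAZN had -0.55 and did not pass (limma adjusted p = 0.210).

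Promoter sequence was read because MYC was in the set and its partner sequence is known. Windows from 250 bases before to 50 bases after each start were taken from RefSeq on GRCh38.p14, and 5291 of the 6218 genes had one. CACGTG, the E-box, reads the same on both strands and was found in a window of 734 of these genes (13.9%). It was found for 7 of the 9 lower genes that had a window, namely CCDC86, NAT10, IPO4, HK2, BCAT1, PNO1 and KAZN, and not for NOP16 and NRARP. It was also found for 1 of the 3 higher genes with a window, IRF9. It was found for 18 of 35 ribosome biogenesis genes (51.4%), a list described below. Of all 35116 windows 7.26% held it. TGGGAA, the core bound by RBPJ, searched on both strands, was found for 3 of the 9 lower genes, against 27% of the 5291. The core of the interferon-stimulated response element, searched on both strands, was found for 0 of the 3 higher genes and 3.89% of the 5291. These are matches of letters, with no binding data behind them. The sequences below are the bases just before the start, with CACGTG in capitals, for the nucleolar and import genes with the match nearest the start on that side, for HK2, which has 2 matches, and for NOP16, which has none. They are shown 5′ to 3′ on the gene's strand.
CCDC86, chr11:60842033-60842112, plus strand: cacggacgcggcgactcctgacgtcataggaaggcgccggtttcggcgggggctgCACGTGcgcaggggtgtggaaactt
NAT10, chr11:34105549-34105628, plus strand: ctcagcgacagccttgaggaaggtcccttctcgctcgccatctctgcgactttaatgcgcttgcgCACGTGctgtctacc
IPO4, chr14:24188817-24188896, minus strand: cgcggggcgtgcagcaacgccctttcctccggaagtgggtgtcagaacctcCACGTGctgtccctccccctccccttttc
HK2, chr2:74834970-74835169, plus strand: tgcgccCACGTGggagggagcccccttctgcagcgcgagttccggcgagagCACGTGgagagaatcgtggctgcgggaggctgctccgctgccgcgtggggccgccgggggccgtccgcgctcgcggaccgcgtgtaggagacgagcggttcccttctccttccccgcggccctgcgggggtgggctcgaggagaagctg
NOP16, chr5:176388599-176388678, minus strand: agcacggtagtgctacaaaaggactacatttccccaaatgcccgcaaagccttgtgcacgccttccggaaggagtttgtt

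The match began 15 bases before the start in NAT10, 25 in CCDC86 and 29 in IPO4. In HK2 the matches began 194 and 149 bases before it. BCAT1 and PNO1 had theirs just after the start, at positions 15 and 10. NOP16, without a match in its window, had a difference from Mino of -1.03, beside -1.08 for NAT10 and -1.09 for IPO4.

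The 4 higher genes were TBC1D10C, RASSF6, IRF9 and PCED1B, and they were less alike than the lower ones. RASSF6, which encodes a protein with a Ras-association domain, moved in both lines. It was 7.68 and 7.38 in mock and 7.59 and 7.57 in inhibitor-treated Mino cells, went from 7.36 and 7.36 to 8.76 and 8.48 in Rec-1, and from 4.95 and 4.87 to 6.14 and 5.89 in SP-49. It rose within each line, by 1.26 in Rec-1 and 1.11 in SP-49, and the difference from Mino was 1.13 (SE 0.183, limma adjusted p = 0.0419). The 2 other RASSF6 probe sets, below 4 in a mock group, had 1.36 and 0.57. With its probe sets averaged, RASSF6 had 1.02 and did not pass (limma adjusted p = 0.0858).

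TBC1D10C, an inhibitor of calcineurin and Ras signalling in lymphocytes, began far lower in Rec-1 (4.26 and 4.29) and SP-49 (4.73 and 4.45) than in Mino (6.32 and 6.48). With the inhibitor it was 6.07 and 5.91 in Rec-1, 5.19 and 5.16 in SP-49 and 6.31 and 6.48 in Mino. Rec-1 thus came close to the Mino level, without reaching it. The difference from Mino was 1.15 (SE 0.170, limma adjusted p = 0.0285), and the Rec-1 effect exceeded the SP-49 effect by 1.13 (limma adjusted p = 0.0325). PCED1B had effects of -0.27 in Mino, 1.12 in Rec-1 and 0.22 in SP-49 and a difference of 0.93 (limma adjusted p = 0.0419).

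IRF9, the DNA-binding part of the factor that answers type I interferon, owed its difference to Rec-1 and Mino. It was 5.01 and 5.03 in mock and 6.24 and 6.29 in inhibitor-treated Rec-1 cells. In Mino it was 4.14 and 4.04 without and 3.73 and 3.48 with the inhibitor, and in SP-49 it was 6.91 and 6.90 without and 6.75 and 6.84 with it. SP-49 already had the highest level in mock cells and did not go up. Its difference from Mino was 1.05 (SE 0.153, limma adjusted p = 0.0275), and the Rec-1 effect minus the SP-49 effect was 1.35 (limma adjusted p = 0.0117).

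Gene lists placed these genes in their pathways. The lists were written from textbook knowledge with earlier results of these data known, and are given as counts and medians beside the median of -0.09, the 64.2% below 0 and the 0.257% called over all 6218 genes. List members named below that were not named above were chosen after their values were seen. Ribosome biogenesis had the most negative median, -0.67 over 40 genes, with 40 of 40 below 0 and 2 (PNO1 and NOP16) called lower. Its median effect was 0.05 in Mino, -0.85 in Rec-1 and -0.38 in SP-49. BYSL, which helps to process the small subunit, had -1.10, RRP12 had -0.98, WDR43 had -0.99 and LYAR had -0.89, with limma adjusted p of 0.0674 to 0.0704. NPM1 and NOP10, also nucleolar, had only -0.29 and -0.08. When genes with every group mean under 4 were left out before the fit, 13 of the 40 were called lower. In that fit 89 of the 6218 genes were called (1.43%), 67 of them lower (1.08%).

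Mitochondrial import and chaperone genes came next, with a median of -0.54 over 23 genes, 23 of 23 below 0 and GRPEL1 called. HSPA9, the HSP70 that GRPEL1 serves, had -0.80 (limma adjusted p = 0.0845), and C1QBP had -0.77. Nucleotide and one-carbon synthesis had -0.39 over 24 genes, aminoacyl-tRNA synthetases -0.38 over 18, chaperones of the heat-shock and chaperonin families -0.38 over 23, and subunits and factors of RNA polymerases I and III -0.36 over 28, with 0 called in each. POLR1B, the second-largest subunit of RNA polymerase I, had -1.31 with an SE of 0.384 and did not pass (limma adjusted p = 0.221). Polyamine synthesis had -0.33 over 11 and translation factors -0.30 over 23, again with 0 called. Structural ribosomal proteins had a median of -0.12 over 25 genes, with effects of -0.01 in Rec-1 and -0.12 in SP-49 against 0.06 in Mino. Their median levels in mock cells, 11.1 to 11.4, lay near the top of the scale, and the difference between these lists was not tested.

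The glycolysis list and the amino acid supply list each had 1 enzyme that passed. Glycolysis and hypoxia genes had a median of -0.22 over 20 genes, with HK2 as the 1 called. Within Rec-1, 7 of 20 were called lower and 1 (PFKL) higher, against 9.18% and 3.97% of the 6218 genes. PFKM, a phosphofructokinase, had a difference from Mino of -0.84 (limma adjusted p = 0.157) and LDHA, a lactate dehydrogenase, -0.45 (limma adjusted p = 0.285). Amino acid supply genes had -0.19 over 12, with BCAT1 as the 1 called. Within Rec-1, 5 of 12 were called lower and 1 (SLC38A2) higher, beside the same shares. The arginine transporter SLC7A1 had a difference from Mino of -0.81 (limma adjusted p = 0.369) and the proline enzyme ALDH18A1 -0.67 (limma adjusted p = 0.131). In the MAX network MYC was the 1 of 9 called, with a median of -0.03. MAX, its partner, had 0.00, and the MAX-binding repressors MXI1 and MXD3 had -0.67 and 0.47 (limma adjusted p = 0.510 and 0.367).

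Lists of cell division lay near 0. G1/S genes had a median of -0.02 over 37 genes and G2/M genes 0.03 over 33, with 0 called in both. The lowest and highest of the G1/S genes were CDC25A at -0.39 and E2F1 at 0.40. Notch machinery, MHC class II, plasma cell and secretion genes and the BCL2 family also had medians between -0.05 and 0.01, with 0 called.

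**Figure D3:**
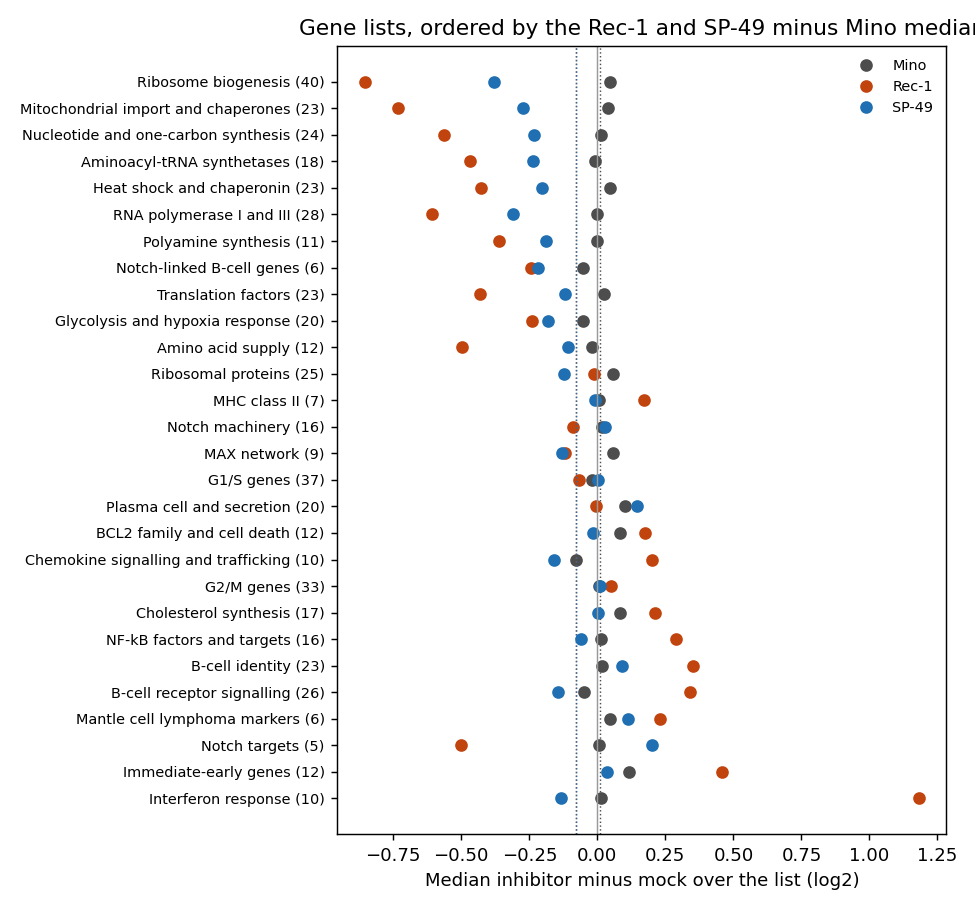
Median inhibitor effect (log2, x axis) over the genes of each list in Mino, Rec-1 and SP-49, with the number of genes in brackets and dotted lines at the median of all 6218 genes in each line. Mino medians stay between -0.08 and 0.12, those of ribosome biogenesis reach -0.85 in Rec-1 and -0.38 in SP-49, and the interferon list at the bottom parts Rec-1 (1.18) from SP-49 (-0.13).

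The highest median belonged to the interferon response, 0.43 over 10 genes with IRF9 called, and it came from Rec-1. Its median effect was 1.18 in Rec-1, -0.13 in SP-49 and 0.02 in Mino. MX1, an antiviral GTPase, had effects of 1.69, -0.06 and 0.14 in these lines, and ISG15, a ubiquitin-like protein, had 1.83, -0.02 and 0.03. Of the 10, 7 were called higher within Rec-1 (3.97% of the 6218), and 6 had a higher effect in Rec-1 than in SP-49 by the test (0.595% of the 6218). For these 6 a positive difference from Mino is thus not an effect common to both lines. B-cell receptor genes had a median of 0.12 over 26 genes and median effects of 0.34 in Rec-1, -0.14 in SP-49 and -0.05 in Mino, and 0 called. They ran from FYN at -0.80 and the kinase BLK at -0.72 (limma adjusted p = 0.135) to the signalling chain CD79B at 0.81 (limma adjusted p = 0.0794). CD79B had effects of 1.05 in Rec-1 and 0.52 in SP-49.

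Line by line, Rec-1 carried most of the calls. The Rec-1 effect differed from the Mino effect for 200 of the 6218 genes (3.22%), 133 lower (2.14%) and 67 higher (1.08%). The SP-49 effect differed from the Mino effect for 0 by limma, with a smallest adjusted p of 0.0564 and 529 genes at an unadjusted p under 0.05, and for 27 by limma with an intensity trend and a robust prior. These comparisons share the Mino arrays, and both share arrays with the difference from Mino. Of the 16 genes, Rec-1 lay further from Mino than SP-49 did for 15, all but MYC, and the Rec-1 and SP-49 effects differed by the test for 3 (KAZN, TBC1D10C and IRF9). That test called 57 of the 6218 (0.917%). Within lines, 818 genes (13.2%) changed in Rec-1, 13 (0.209%) in SP-49 and 0 in Mino, where limma gave 179 at an unadjusted p under 0.05 and a smallest adjusted p of 0.855, and limma with a trend and robust prior also called 0. With 1 array left out, the Rec-1 minus Mino count ran from 28 to 148, and was 529 without Rec-1 inhibitor replicate 1. The Rec-1 minus SP-49 count ran from 2 to 60, and was 157 without that same array. The Rec-1 count was 283 and 287 without its mock replicates 1 and 2, 470 without its inhibitor replicate 2 and 605 or more otherwise. The SP-49 count was 0 without either of its mock arrays or its inhibitor replicate 2, and 4 to 7 without 1 of the Mino arrays or Rec-1 mock arrays. It was 24 without SP-49 inhibitor replicate 1 and 32 without either Rec-1 inhibitor array.

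Several genes outside the rule had larger differences and were below 4 in mock Mino cells. HES1, the classical Notch target, was between 1.69 and 2.0 on the 4 Mino arrays, and went from 5.86 and 5.67 to 2.23 and 1.70 in Rec-1 and from 6.11 and 5.77 to 2.53 and 2.33 in SP-49. Its difference from Mino was -3.59 (limma adjusted p = 8.71e-05). FCRL4 (-3.36), CR2 (-2.73), HEY1 (-2.36), HES4 (-1.97) and CD300A (-1.84) also passed. HEY1 and HES4 were below 4 in mock SP-49 cells too, at 3.53 and 3.02. A gene at background in mock Mino cells cannot fall there, so these values cannot separate a lack of response from a lack of expression.

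The 16 calls rest on few arrays. No call held without each of the 12 arrays in turn, although no estimate changed sign. Of the other bright probe sets of the 16 genes, 5 of 5 had the sign of the one used, against 72% of 2995 over the 6218 genes. The 16 were picked for large differences on these same arrays, so this shared sign is not separate support for the calls. HK2 held in 9 of the 12 fits, BCAT1 in 7 and MYC in 6. The count was 0 without Mino mock replicate 2, Mino inhibitor replicate 1 or Mino inhibitor replicate 2, and 142 without Rec-1 inhibitor replicate 1. It was 5 without Mino mock replicate 1, 3 and 5 without Rec-1 mock replicates 1 and 2, 1 without either SP-49 mock array, and 7 without SP-49 inhibitor replicate 2. Without genes dim in every group the count of 89 held all 16, with fewer genes in the adjustment and 3.76 prior degrees of freedom in place of 5.22. When the arrays were quantile normalized again, the median over the 6218 genes moved from -0.09 to 0.00 and the calls split as 6 lower and 7 higher, while the ribosome biogenesis median was -0.58. The second inhibitor arrays of Rec-1 and SP-49 had the narrowest spread over probe sets (SD 1.95 and 2.0). Without both, 8 of the 16 held and that list's median was -0.59.

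**Figure D4:**
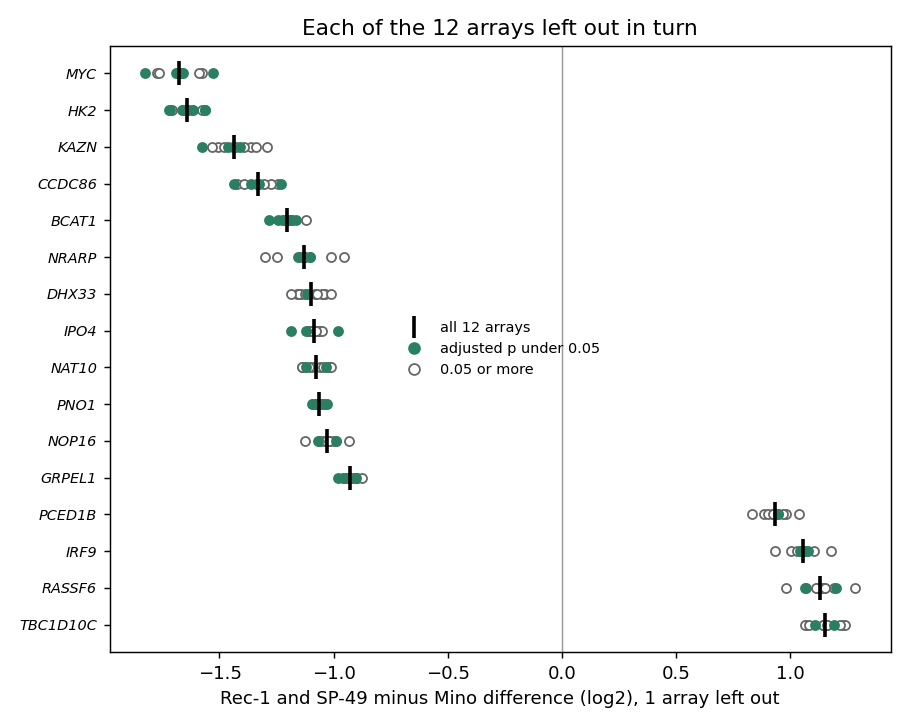
Difference from Mino (log2, x axis) for the 16 genes with each of the 12 arrays left out in turn; filled points have a limma adjusted p under 0.05, open points do not, and black bars mark the value with all arrays. HK2 runs from -1.72 to -1.56 and MYC from -1.83 to -1.53, so values shift little beside their size while calls come and go.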

How the data were processed

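Affymetrix arrays with 54675 probe sets measured RNA of 12 samples. The deposited values were log2 levels normalized by the authors; RMA and limma are named in the submitters' processing notes, with no version given. The base of 2 follows from their range, and their median was 1.99. Per GEO's platform annotation, 41097 probe sets named 1 gene, 1801 several and 11777 none. Each gene took the probe set, naming it alone, with the highest mean over the 12 arrays, so dim probe sets of the same gene were not used.

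The model was limma 3.58.1 in R 4.3.3 (lmFit, eBayes with constant prior variance) on 6 group means, with 6 residual and 5.22 prior degrees of freedom. P-values were two-sided and adjusted over 19775 genes, threshold 0.05. The median SE was 0.201 for the difference from Mino and 0.164 for an effect in 1 line; 2 arrays a group limit the precision. Intervals of 95% are for 1 gene, unadjusted. Tested on simulated data for the difference from Mino over 19775 genes, the pipeline recovered 6% of genes changed by -0.5, 70% at -1, 98% at -1.5 and 66% at 1, with 7 false calls. The simulation shifted 50 genes at each size, equally in Rec-1 and SP-49 and not in Mino, with independent normal noise. In the data the effects of the 2 lines were often unequal and fewer genes passed, so these shares may overstate recovery there.

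The genes and lists were chosen with earlier results of these data known. The named genes were up to 12 each way past the threshold, with HES1, HES4, HEY1, NRARP, DTX1, NOTCH1, MYC, CR2, FCRL4, CD300A and FYN whatever their p. The 3 genes each side of the level of 4 were added. The rule had 3 further parts: the largest smaller of the differences of Rec-1 and SP-49 from Mino, the largest opposite Mino effects, and list members with the smallest adjusted p. These parts named no further gene. Alternatives covered probe-set choice, normalization, prior, filters, array weights, a replicate block, arrays left out and the level limit. Batches and scan dates were not used here.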

Additional observations from a re-analysis of the deposited data

Results flagged for a closer look

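The tests of the difference itself picked out these genes, in which the inhibitor effect differed between lines (limma, adjusted over all genes). The difference from Mino was negative for MYC (-1.68), HK2 (-1.64), KAZN (-1.43), CCDC86 (-1.33), BCAT1 (-1.20), NRARP (-1.13), DHX33 (-1.10), IPO4 (-1.09), NAT10 (-1.08), PNO1 (-1.06), NOP16 (-1.03) and GRPEL1 (-0.93). It was positive for TBC1D10C (1.15), RASSF6 (1.13), IRF9 (1.05) and PCED1B (0.93). Among the genes named whatever their p and below 4 in mock Mino cells, it was negative for HES1 (-3.59), FCRL4 (-3.36), CR2 (-2.73), HEY1 (-2.36), HES4 (-1.97) and CD300A (-1.84). The Rec-1 effect differed from the SP-49 effect for KAZN (-1.40), HES4 (-1.55), HEY1 (-1.99) and DTX1 (-1.05), where Rec-1 was lower, and for IRF9 (1.35) and TBC1D10C (1.13), where Rec-1 was higher.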

How the results depend on the processing

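Counts below are genes that passed (limma), of the 6218 unless the setting changed the set. Averaged probe sets, a mock limit of 5 and a mean of 4 over all arrays each had their own set of genes. With every probe set, probe sets were counted in place of genes. The mean of 4 over all arrays used the main fit, so the calls it added lie outside the 6218. The difference from Mino called 16 genes; it called 42 with probe sets averaged per gene, 276 with an intensity trend and robust prior, 89 without dim genes and 10 with a mock limit of 5. Rec-1 minus Mino (200) gave 604 with the trend and robust prior, 448 without dim genes and 99 without both doubted arrays, the second inhibitor arrays of Rec-1 and SP-49. SP-49 minus Mino (0) gave 27 with the trend and robust prior, 3 with a mean of 4 over all arrays, and 1 with probe sets averaged, repeated quantile normalization, array weights, dim genes left out or the doubted arrays left out. Rec-1 minus SP-49 (57) gave 253, 137 and 10 with the trend, without dim genes and without doubted arrays, and 34 with a mock limit of 5. The Rec-1 count (818) was 1351 with the trend, 1255 without dim genes, 525 with array weights and 486 without doubted arrays. The SP-49 count (13) was 25 with probe sets averaged, 8 with every probe set, 149 with the trend, 50 without dim genes, 63 with array weights, 3 without doubted arrays, 8 with a mock limit of 5 and 20 with a mean of 4 over all arrays. The Mino count was 0 throughout. The cause of these shifts was not tested.

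Leaving out 1 array gave ranges of 0 to 142 for the difference from Mino, 28 to 529 for Rec-1 minus Mino, 0 to 1 for SP-49 minus Mino, 2 to 157 for Rec-1 minus SP-49, 283 to 1093 for Rec-1 and 0 to 32 for SP-49. The lone array of a group was then assumed to vary like the others.

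Deviations from group means of same-numbered arrays correlated at 0.05, 0.09 and -0.01 in Mino, Rec-1 and SP-49 over all genes, and at 0.15, 0.15 and -0.09 over the 6218 genes. They were not above 0.1 in every line, so the numbers were not taken as pairs. With a replicate block the difference from Mino called 1 gene, Rec-1 minus Mino 55, Rec-1 minus SP-49 15 and SP-49 2.

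Repeated quantile normalization changed the split of lower and higher calls to 6 and 7 for the difference from Mino, 98 and 99 for Rec-1 minus Mino, 447 and 404 for Rec-1, and 14 and 5 for SP-49. Median centring changed it to 15 and 2 for the difference from Mino and 161 and 45 for Rec-1 minus Mino. NOTCH1 turned from -0.10 to 0.016 under repeated quantile normalization and passed neither way. With 2 arrays a group, their number limits the precision.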
